A study of Mus musculus with 32 samples.

Results

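The genes described here are 6 CXC chemokines of mouse lung endothelial cells (ECs), Cxcl1, Cxcl2, Cxcl3, Cxcl5, Cxcl12 and Cxcl16, taken by symbol from the 54429 gene symbols of the count matrix. Each symbol matched 1 gene identifier, and all 6 passed the low-count filter that left 15254 genes for testing. Bulk RNA-seq was made from Veravec, a mouse lung EC line, in 8 groups of 4 libraries labelled as biological replicates. Every culture had been transfected with siRNA in 2 rounds, either a control siRNA (si-control) or an siRNA directed to Dnmt1 (si-dnmt), the enzyme that copies DNA methylation onto the new strand after replication. Each siRNA was then combined with no cytokine, TNFα at 10 ng/mL (TNF), IFNγ at 1000 U/mL (IFN), or both (TNF + IFN), for 16 h. The study's methods list 2 Dnmt1 siRNA sequences and do not say whether they were pooled or used in separate cultures. All groups come from this 1 line, so every value speaks for cultures of that line.

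CXC chemokines are small secreted proteins that guide leukocytes to tissue. Cxcl1, Cxcl2, Cxcl3 and Cxcl5 carry the ELR motif and attract neutrophils through the receptor CXCR2, and inflamed endothelium displays them on its luminal side. Cxcl12 is the ligand of CXCR4 and ACKR3 and retains progenitors and lymphocytes, and Cxcl16 is made as a membrane-bound protein that binds CXCR6 on T cells and is shed by ADAM10. TNFα acts through NF-kB, which binds the promoters of the ELR chemokines, whereas IFNγ acts through JAK kinases and is best known for inducing Cxcl9, Cxcl10 and Cxcl11, which attract T cells. The question here was how each cytokine, their combination and the Dnmt1 siRNA moved these 6 mRNAs, and in particular whether IFN opposed TNF.

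Cxcl5, Cxcl3, Cxcl1 and Cxcl2 lie in this order in a single cluster on mouse chromosome 5 with Ppbp, Pf4 and Cxcl15, in the order of the RefSeq annotation of GRCm38.p6. Promoter windows of 300 bases around the RefSeq start site were given for 4 of the 6 genes, and not for Cxcl5 and Cxcl16. They are shown because 3 of them share a site for the factor through which TNFα acts. Capitals mark matches to the NF-kB consensus on either strand, which overlap there, and each window is written 5′ to 3′ on the strand of its gene.
Cxcl1: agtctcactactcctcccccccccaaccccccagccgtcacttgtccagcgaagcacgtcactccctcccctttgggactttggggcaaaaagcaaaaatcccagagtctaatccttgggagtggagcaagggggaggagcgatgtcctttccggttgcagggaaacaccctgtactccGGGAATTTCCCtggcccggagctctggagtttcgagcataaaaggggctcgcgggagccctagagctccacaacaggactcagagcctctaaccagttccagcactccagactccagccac
Cxcl2: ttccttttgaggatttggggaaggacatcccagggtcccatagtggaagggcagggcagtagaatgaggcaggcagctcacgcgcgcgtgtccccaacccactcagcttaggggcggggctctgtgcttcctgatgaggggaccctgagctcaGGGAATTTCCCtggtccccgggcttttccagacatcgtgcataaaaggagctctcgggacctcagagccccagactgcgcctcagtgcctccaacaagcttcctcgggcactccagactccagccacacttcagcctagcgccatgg
Cxcl3: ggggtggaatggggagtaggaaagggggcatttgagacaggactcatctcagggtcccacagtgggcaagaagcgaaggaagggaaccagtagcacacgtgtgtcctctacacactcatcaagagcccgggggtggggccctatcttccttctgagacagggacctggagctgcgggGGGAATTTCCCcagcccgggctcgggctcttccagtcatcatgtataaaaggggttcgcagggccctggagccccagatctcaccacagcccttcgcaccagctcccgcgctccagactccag
Cxcl12: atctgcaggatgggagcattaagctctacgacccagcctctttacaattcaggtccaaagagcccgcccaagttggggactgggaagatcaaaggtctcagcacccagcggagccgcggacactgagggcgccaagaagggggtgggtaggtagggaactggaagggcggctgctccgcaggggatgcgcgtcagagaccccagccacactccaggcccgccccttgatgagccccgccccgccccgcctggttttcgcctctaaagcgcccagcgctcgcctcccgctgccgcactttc

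The Cxcl1 window lies at chr5:90890995-90891294, that of Cxcl2 at chr5:90903649-90903948, that of Cxcl3 at chr5:90785851-90786150 and that of Cxcl12 at chr6:117168285-117168584, all on the plus strand. Cxcl1, Cxcl2 and Cxcl3 each held GGGAATTTCC, starting 71, 97 and 73 bases before the start site. This exact 10-base form, taken from the Cxcl1 window after its letters were seen, was found on either strand in 29 of 32851 promoter windows of the same length (0.0883%), and the NF-kB consensus in 1480 (4.51%). The same 3 windows held ATAAAAGG, a TATA-like motif, 34, 57 and 29 bases before the start site, against 1.76% of all windows. The Cxcl12 window held neither motif, and it held 20 CG dinucleotides against 10 or 11 in the other windows and a median of 7 over all windows. The core of the interferon-stimulated response element was absent from all 4 windows and was found in 3.44% of all windows. Both strands were searched, and a match in letters is not a bound site.

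The mRNAs also differed in ATTTA, the core of AU-rich elements, through which proteins of the ZFP36 family shorten the life of chemokine mRNAs. The longest coding transcript of Cxcl1 held 7 copies (7.35 per kb), that of Cxcl2 held 11 (5.92 per kb), that of Cxcl3 held 5 (4.92 per kb) and that of Cxcl5 held 5 (3.17 per kb). These densities exceed those of 95.9% or more of 21877 protein-coding genes, for which the median was 0.822 per kb. Cxcl12 and Cxcl16 held 0.711 and 0.741 copies per kb. Cxcl2 and Cxcl3 share an identical run of 157 bases between transcripts, 110 bases between coding ones, so reads from either could be assigned to the other or discarded, and their counts are uncertain to that extent. The longest run shared by any other pair of the 4 neutrophil-attracting chemokines was 23 bases.

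Libraries held between 17362546 and 33500030 counted reads. Dnmt1 itself was at 86.5 to 211.0 CPM (a gene's reads relative to the reads of its library, scaled by TMM) in the 16 si-control libraries and at 5.11 to 17.3 CPM in the 16 si-dnmt libraries. Without cytokine Dnmt1 was at 90.1, 89.1, 153.4 and 147.9 CPM in si-control replicates 1 to 4. In si-dnmt replicates 1 to 4 it was at 10.3, 12.4, 6.45 and 6.53 CPM. In every cytokine state replicates 3 and 4 held more Dnmt1 than replicates 1 and 2 in si-control cells, and less in si-dnmt cells. The part of this difference in the chemokine values was not tested. All 10 endothelial markers passed the filter and summed to 2756 to 8526 CPM, whereas the 6 epithelial markers summed to at most 0.205 CPM. The 10 leukocyte markers, of which 4 passed the filter, summed to 67.8 to 232.7 CPM, carried by Cd68 and Lyz2, with Cd3e at 0 in every library, and neutrophil marker Ly6g did not exceed 0.988 CPM. The 8 fibroblast and pericyte markers, of which 4 passed the filter, summed to 2.24 to 9.25 CPM without TNF and to 8.84 to 56.6 CPM with it. In bulk RNA a change in the share of cells that make a chemokine and a change in mRNA per cell cannot be told apart.

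Replicates 1 and 2 differed from replicates 3 and 4. Over all tested genes, the deviations of 2 libraries from their group means correlated at a median of 0.415 when they had the same replicate number, at 0.409 with the other number of the same set and at -0.410 across the sets. The labels do not say what the sets are. Differences were tested with edgeR's quasi-likelihood F test over the 8 groups, and a gene was called at a Benjamini-Hochberg adjusted p under 0.05 over 15254 genes, with fold changes given as log2 ± SE. A blocked value (the replicate number as a block) and values within each replicate set stand beside those chemokine results whose call they change. The value with the replicate set as a block, chosen after the data had been seen, is given where it alone of the blocks changes a call. The labels do not state whether replicates came from separate passages, so these p-values measure the spread between these cultures, which may be partly technical.

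TNF raised all 6 chemokines in si-control cells. The increase was largest for Cxcl3 (log2 fold change 4.49 ± 0.42) and Cxcl2 (4.36 ± 0.53), intermediate for Cxcl5 (2.91 ± 0.41), Cxcl16 (2.67 ± 0.17) and Cxcl1 (2.46 ± 0.44), and smallest for Cxcl12 (1.65 ± 0.47). Among all genes tested, 16.1% were called higher with TNF. In si-dnmt cells 5 of 6 were called higher, against 11.5% of all genes, and Cxcl12 was not (0.80 ± 0.46, adjusted p = 0.234). With the replicate block Cxcl12 was called there too (1.00, adjusted p = 0.00144), but its value was 1.56 in replicates 1 and 2 and 0.41 in replicates 3 and 4, and this difference between the sets was called (adjusted p = 0.000415, against 3.13% of all genes). Each set alone also called it. The sum of the endothelial markers was lower with TNF: it was 5681 to 8526 CPM without cytokine and 3810 to 5567 CPM with TNF in si-control cells, and 5217 to 7819 against 3197 to 4709 CPM in si-dnmt cells. Of the 10 markers, 3 were called lower in si-control cells and 5 in si-dnmt cells, and 0 were called higher. Over all 15254 genes, 4691 and 3209 were called in either direction. The part of these marker shifts in the chemokine values was not tested.

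**Figure D1:**
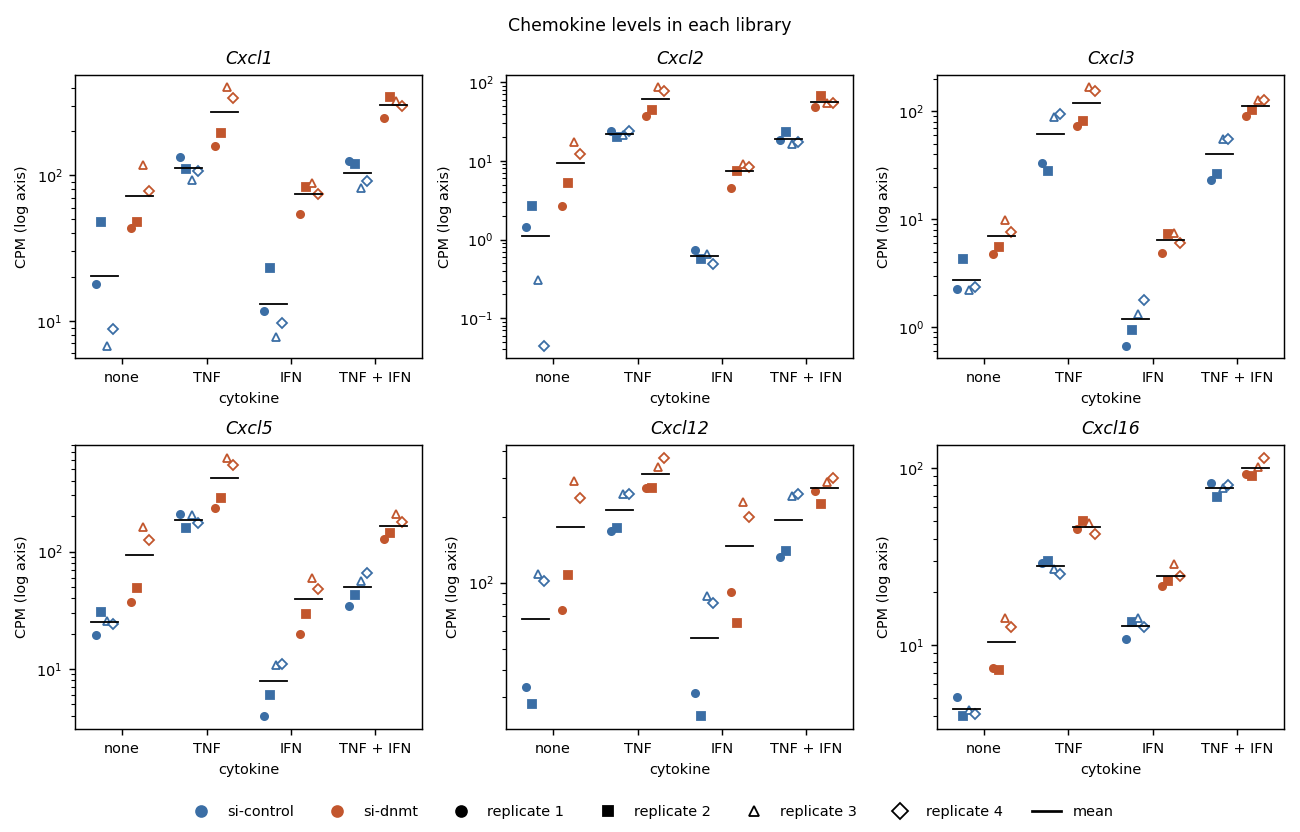
CPM of each chemokine (log axis) in every library by cytokine, si-control in blue and si-dnmt in orange, with filled symbols for replicates 1 and 2, open symbols for replicates 3 and 4 and a bar at the mean of 4. Cxcl16 rises with each cytokine and most with both, whereas Cxcl5 rises with TNF and is lower with TNF + IFN than with TNF in every library.

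Cxcl5, known in epithelium and endothelium as a neutrophil attractant, was higher with TNF, lower with IFN and between these levels with both. In si-control cells it was at 19.3, 30.6, 25.4 and 24.1 CPM without cytokine in replicates 1 to 4, and at 210.1, 158.5, 203.9 and 173.8 CPM with TNF. With IFN it was at 3.98, 5.98, 10.8 and 11.1 CPM, while under TNF + IFN it was at 34.6, 42.3, 55.7 and 65.9 CPM. Every TNF library was above every library without cytokine, every IFN library was below, and the TNF + IFN libraries lay between them and the TNF libraries. Under si-dnmt it was at 37.5, 48.9, 162.3 and 125.7 CPM without cytokine and at 234.7, 287.4, 626.0 and 541.8 CPM with TNF. With IFN the si-dnmt libraries held 19.7, 29.6, 59.0 and 48.4 CPM, while under TNF + IFN they held 128.3, 144.8, 207.2 and 179.4 CPM. Here too TNF + IFN stayed below TNF in all libraries, but replicates 3 and 4 were above replicates 1 and 2 in each state, and the libraries with IFN overlapped those without cytokine.

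Cxcl1, with Cxcl2 the classical early neutrophil attractant of the mouse, was high in both groups given TNF. Without cytokine si-control libraries held 17.8, 47.8, 6.77 and 8.75 CPM of Cxcl1, and with TNF 133.1, 110.9, 93.4 and 107.5 CPM. With IFN they held 11.6, 22.9, 7.75 and 9.61 CPM, while under TNF + IFN they held 124.7, 118.9, 81.5 and 91.1 CPM. Replicate 2 was the highest both without cytokine and with IFN, the libraries of these states overlapped, and so did those with TNF and with TNF + IFN. In si-dnmt cells the values were 43.2, 47.7, 118.3 and 78.1 CPM without cytokine and 158.0, 193.6, 400.7 and 338.2 CPM with TNF. They were 54.2, 82.4, 89.1 and 73.7 CPM with IFN and 248.2, 342.2, 323.9 and 298.7 CPM with TNF + IFN. Every si-dnmt library given a cytokine was above every si-control library in the same state, while without cytokine the siRNA groups overlapped.

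Cxcl2 was close to absent from si-control cells without TNF. It was at 1.45, 2.65, 0.308 and 0.0448 CPM without cytokine, the last of these a single read, and at 0.728, 0.572, 0.655 and 0.486 CPM with IFN. With TNF it reached 23.7, 20.0, 21.2 and 24.0 CPM, while under TNF + IFN it reached 18.4, 23.6, 16.3 and 17.6 CPM. The libraries with TNF alone and with TNF + IFN overlapped. In si-dnmt cells Cxcl2 was at 2.67, 5.30, 17.1 and 12.1 CPM without cytokine and at 4.50, 7.48, 9.06 and 8.39 CPM with IFN. It was at 37.4, 44.2, 85.9 and 77.8 CPM with TNF and at 48.8, 66.0, 54.1 and 55.2 CPM with TNF + IFN. The siRNA groups did not overlap in any cytokine state.

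Cxcl3, the third member of the CXCR2 ligand group beside Cxcl1 and Cxcl2, was higher in replicates 3 and 4 than in replicates 1 and 2 in each group given TNF. Si-control libraries held 2.25, 4.24, 2.20 and 2.33 CPM without cytokine and 0.672, 0.936, 1.31 and 1.78 CPM with IFN. With TNF they held 33.2, 27.9, 89.2 and 95.3 CPM, while under TNF + IFN they held 23.0, 26.4, 54.9 and 55.5 CPM. All 4 IFN libraries were below all 4 without cytokine, and within each replicate number the TNF + IFN value was below the TNF value, although the groups overlapped. In si-dnmt cells Cxcl3 was at 4.72, 5.52, 9.83 and 7.65 CPM without cytokine and at 4.84, 7.31, 7.41 and 6.00 CPM with IFN. It was at 73.8, 81.1, 167.0 and 153.3 CPM with TNF and at 89.9, 102.3, 128.7 and 129.0 CPM with TNF + IFN. In si-dnmt cells the libraries with and without IFN overlapped, both with TNF and without it.

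Cxcl12, a chemokine that endothelium makes without stimulation, was higher in replicates 3 and 4 than in replicates 1 and 2 in every group, with or without TNF. Si-control libraries held 33.2, 27.9, 109.8 and 101.4 CPM without cytokine and 31.3, 24.6, 86.5 and 80.4 CPM with IFN. With TNF they held 172.5, 177.1, 253.0 and 253.0 CPM, while under TNF + IFN they held 130.3, 138.6, 248.6 and 254.5 CPM. Both TNF groups were above every library without TNF. In si-dnmt cells the values were 74.8, 108.2, 290.9 and 242.3 CPM without cytokine and 90.9, 65.1, 233.5 and 198.2 CPM with IFN. They were 270.2, 269.9, 336.8 and 370.1 CPM with TNF and 260.6, 227.8, 288.2 and 301.0 CPM with TNF + IFN. Without cytokine the si-dnmt replicates 3 and 4 overlapped the si-dnmt libraries with TNF or TNF + IFN, and replicates 1 and 2 lay below them.

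Cxcl16, the CXCR6 ligand, rose with each cytokine. In si-control cells it was at 5.07, 3.98, 4.31 and 4.08 CPM without cytokine, at 29.1, 30.0, 26.8 and 25.3 CPM with TNF, at 10.8, 13.6, 14.2 and 12.7 CPM with IFN and at 81.9, 68.3, 77.5 and 80.3 CPM with TNF + IFN. These 4 groups did not overlap. In si-dnmt cells it was at 7.39, 7.23, 14.2 and 12.6 CPM without cytokine, where the replicate sets lay apart, at 45.2, 50.5, 48.8 and 42.4 CPM with TNF, at 21.5, 23.1, 28.8 and 24.7 CPM with IFN and at 92.7, 90.3, 102.0 and 114.2 CPM with TNF + IFN. The order of the 4 states was the same under both siRNAs, again with no overlap.

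IFN alone moved 2 of the 6 chemokines, in opposite directions. In si-control cells Cxcl5 was 3.12-fold lower (log2 fold change -1.64 ± 0.41, adjusted p = 0.0060) and Cxcl16 was 2.94-fold higher (1.56 ± 0.16, adjusted p = 2.84e-08), where 14.5% of all genes were called in either direction. Cxcl3 was at -1.21 ± 0.48 without passing the test (adjusted p = 0.0984), and was called with the replicate block (-1.26, adjusted p = 0.0131) and in DESeq2 (-1.24, adjusted p = 0.0181). Cxcl1 (-0.64 ± 0.43), Cxcl2 (-0.81 ± 0.68) and Cxcl12 (-0.29 ± 0.46) were not called, and without si-control replicate 2 the values of Cxcl1 and Cxcl2 changed sign (0.23 and 0.040). Within replicates 1 and 2 Cxcl1 and Cxcl2 were called lower (-0.88 and -1.61), whereas within replicates 3 and 4 they were at 0.16 and 1.65 and were not called. In replicates 3 and 4 Cxcl12 was called lower (-0.34), and in replicates 1 and 2 Cxcl3 was (-1.95). In si-dnmt cells Cxcl5 was again lower (-1.26 ± 0.39, adjusted p = 0.0393) and Cxcl16 higher (1.24 ± 0.15), where 9.01% of all genes were called. The Cxcl5 call in si-dnmt cells was lost on leaving out replicate 3 or 4 of si-dnmt, or replicate 1 or 2 of si-dnmt + IFN (-1.14 to -0.85, adjusted p 0.122 to 0.236), and when the 2 groups were fitted alone (-1.26, adjusted p = 0.181). Within replicates 3 and 4 alone Cxcl2 (-0.75, adjusted p = 0.00101), Cxcl3 (-0.40, adjusted p = 0.0387) and Cxcl12 (-0.30, adjusted p = 0.0249) were called lower with IFN in si-dnmt cells, so that 5 of 6 were called there, with 2449 of 15184 genes. In replicates 1 and 2 alone Cxcl2 was at 0.61 and Cxcl3 at 0.27, and neither was called.

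IFN on top of TNF lowered Cxcl5 and raised Cxcl16, and the other 4 did not pass the test. In si-control cells Cxcl5 was 3.76-fold lower with TNF + IFN than with TNF (-1.91 ± 0.40, adjusted p = 6.56e-04), at 49.6 ± 13.9 against 186.6 ± 24.6 CPM (SD, n = 4). Cxcl16 was 2.77-fold higher (1.47 ± 0.15, adjusted p = 2.20e-08), at 77.0 ± 6.08 against 27.8 ± 2.15 CPM. The background of calls in either direction was 21.0%. Cxcl1 (-0.096 ± 0.41, 95% interval -0.94 to 0.75), Cxcl2 (-0.23 ± 0.43, -1.10 to 0.65), Cxcl3 (-0.62 ± 0.35, -1.35 to 0.10) and Cxcl12 (-0.15 ± 0.45, -1.08 to 0.78) were not called. With the replicate block Cxcl3 was called lower (-0.58, adjusted p = 0.0358). Within replicates 3 and 4 alone Cxcl2 (-0.41) and Cxcl3 (-0.74) were called lower too.

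In si-dnmt cells Cxcl5 was 2.56-fold lower with TNF + IFN than with TNF (-1.36 ± 0.39, adjusted p = 0.0135) and Cxcl16 was 2.14-fold higher (1.09 ± 0.15, adjusted p = 3.44e-06), where 17.5% of all genes were called. The Cxcl5 call was lost on leaving out replicate 3 of si-dnmt + TNF (-1.10, adjusted p = 0.0652) or replicate 1 of si-dnmt + TNF + IFN (-1.25, adjusted p = 0.0508). Cxcl1 (0.15 ± 0.41), Cxcl2 (-0.13 ± 0.42), Cxcl3 (-0.078 ± 0.35) and Cxcl12 (-0.21 ± 0.45) were not called. The replicate sets disagreed for these: within replicates 1 and 2 Cxcl1, Cxcl2 and Cxcl3 were at 0.75, 0.49 and 0.31, of which Cxcl1 was called, and within replicates 3 and 4 they were at -0.25, -0.58 and -0.31, of which Cxcl2 and Cxcl3 were called. Cxcl12 was called lower there as well (-0.26). The difference between the sets was itself called for Cxcl2 (adjusted p = 0.0366, against 1.25% of all genes) and not for Cxcl1 (0.171) or Cxcl3 (0.0916).

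**Figure D2:**
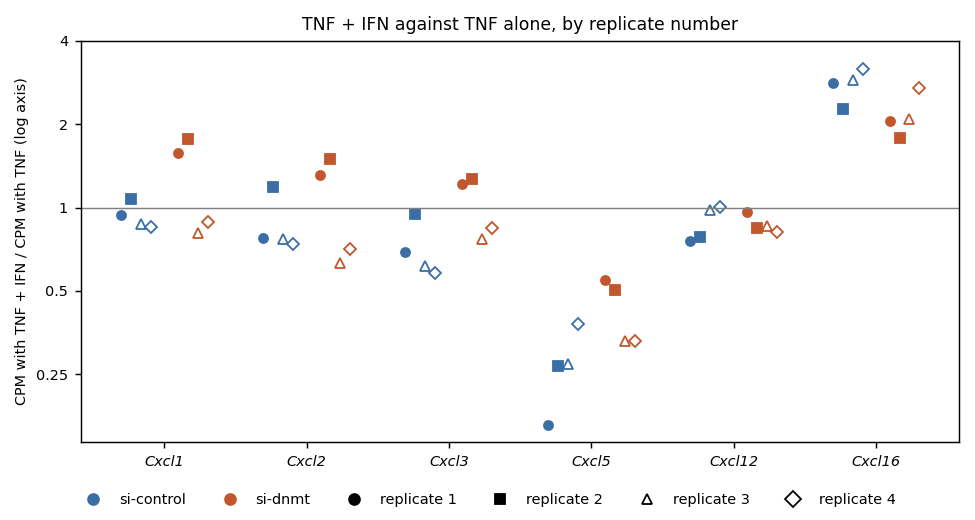
Ratio of the CPM with TNF + IFN to the CPM with TNF (log axis) for libraries with the same replicate number, si-control in blue and si-dnmt in orange, with the grey line at a ratio of 1. All 8 Cxcl5 ratios lie between 0.165 and 0.547 and all 8 Cxcl16 ratios between 1.79 and 3.17, while those of Cxcl1, Cxcl2 and Cxcl3 in si-dnmt cells lie above 1 for replicates 1 and 2 and below 1 for replicates 3 and 4.

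Whether TNF and IFN departed from simple combination depends on the scale. On the linear scale, the increments of TNF and of IFN over no cytokine add up to an expected 169.7 CPM of Cxcl5 in si-control cells, and the observed mean was 29.3% of that sum. In si-dnmt cells it was 44.8%. For Cxcl16 the observed mean was 212% of the sum in si-control cells and 164% in si-dnmt cells. Cxcl1 was at 100% and 110%, Cxcl2 at 87.4% and 94.3%, Cxcl3 at 66.8% and 95.1%, and Cxcl12 at 95.8% and 96.3%. These are ratios of means, given as a description.

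On the log2 scale, where fold changes multiply, the interaction of TNF and IFN was called for 0 of 6 chemokines under either siRNA, against 1.06% of all genes in si-control cells and 0.354% in si-dnmt cells. For Cxcl5 it was -0.27 ± 0.56 (95% interval -1.42 to 0.88) and -0.10 ± 0.54 (-1.21 to 1.01), intervals that allow a fall with IFN either larger or smaller with TNF than without. The expected product of fold changes was 59.7 CPM in si-control cells, beside the observed 49.6 CPM. For Cxcl16 the interaction was -0.087 ± 0.22 (-0.54 to 0.36) and -0.14 ± 0.21 (-0.58 to 0.29), with 81.9 CPM expected from the product and 77.0 CPM observed in si-control cells. The other 4 had interactions between 0.043 and 0.59. Of these 12 values, 0 had an unadjusted p under 0.05, and DESeq2 called 0. Within replicates 1 and 2 alone, 2 of the 12 were called, Cxcl3 in si-control cells (1.65, adjusted p = 0.0072) and Cxcl16 in si-dnmt cells (-0.68, adjusted p = 0.0232), and within replicates 3 and 4 these were at -0.19 and 0.26 and not called. With replicates 1 and 2 alone, 1632 and 737 of 15366 genes were called for the interaction in si-control and si-dnmt cells.

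Against no cytokine, TNF + IFN raised all 6 chemokines in si-control cells, where 23.5% of all genes were called higher. Cxcl16 rose 17.6-fold (4.14 ± 0.17) and Cxcl2 17.6-fold (4.13 ± 0.53), Cxcl3 14.6-fold (3.86 ± 0.42), Cxcl1 5.15-fold (2.36 ± 0.44), Cxcl12 2.83-fold (1.5 ± 0.47) and Cxcl5 1.99-fold (1.00 ± 0.39, adjusted p = 0.0392). The Cxcl5 call was lost on leaving out replicate 1, 3 or 4 of si-control, or replicate 3 or 4 of si-control + TNF + IFN (0.83 to 1.01, adjusted p 0.066 to 0.117). In si-dnmt cells 4 of 6 were called higher, against 21.3% of all genes, and Cxcl5 (0.82 ± 0.38, adjusted p = 0.0928) and Cxcl12 (0.59 ± 0.46, adjusted p = 0.328) were not. Both were called with the replicate block (Cxcl5 0.97, adjusted p = 0.00105, and Cxcl12 0.80, adjusted p = 0.00505), and Cxcl5 also without si-dnmt replicate 3 (1.22, adjusted p = 0.0173). The sets gave 1.66 and 0.42 for Cxcl5 (adjusted p of the difference 0.00252) and 1.42 and 0.14 for Cxcl12 (7.49e-05), against 4.73% of all genes. Each set alone called Cxcl5, and for Cxcl12 replicates 1 and 2 alone gave a call while replicates 3 and 4 alone did not.

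Against IFN alone, TNF + IFN raised all 6 in si-control cells (15.6% of all genes called higher), from 1.79 ± 0.47 for Cxcl12 to 5.08 ± 0.46 for Cxcl3. TNF thus raised Cxcl5 in the presence of IFN as well, by 2.64 ± 0.42, from 7.96 to 49.6 CPM. In si-dnmt cells 5 of 6 were called (12.4% of all genes), and Cxcl12 was at 0.87 ± 0.46 (adjusted p = 0.183), or 1.08 and called with the replicate block (adjusted p = 5.60e-04). Its values were 1.65 and 0.45 in the sets, each called alone and called different from each other (adjusted p = 0.000652, against 0.852% of all genes).

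**Figure D3:**
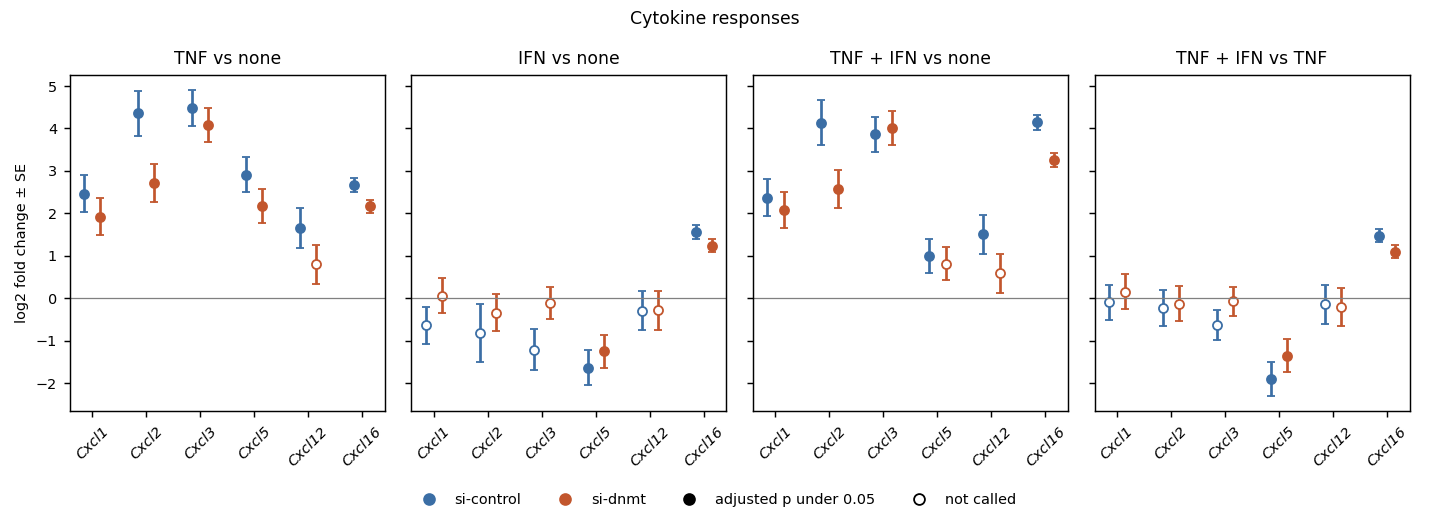
Fitted log2 fold changes ± SE of the 6 chemokines for 4 cytokine comparisons, si-control in blue and si-dnmt in orange, with filled points called at an adjusted p under 0.05. With TNF + IFN against TNF, Cxcl5 lies at -1.91 and -1.36, Cxcl16 at 1.47 and 1.09, and the other 4 are open points between -0.62 and 0.15.

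With IFN added to TNF, Cxcl5 made up less of the neutrophil-attracting chemokines. Taken as CPM per kb of exon, the 4 together were at 187.8 ± 18.4 with TNF and 102.7 ± 5.05 with TNF + IFN in si-control cells (SD, n = 4). The share of Cxcl5 in that sum was 53.3% ± 3.06 with TNF (49.2 to 56.1%) and 25.9% ± 6.91 with TNF + IFN (18.5 to 32.7%). The share of Cxcl1 went from 31.8% ± 4.9 to 54.0% ± 10.9. In si-dnmt cells the Cxcl5 share was 51.7% ± 1.08 and 28.5% ± 3.42, and the sum was 435.8 ± 189.3 against 309.5 ± 41.3 CPM per kb, which overlapped. The shares add to the whole, so they are not independent and were not tested. With the length of the longest coding transcript in place of all exons, the Cxcl5 share was 38.6% ± 3.6 with TNF and 16.5% ± 4.20 with TNF + IFN in si-control cells, a lower level with the same direction.

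**Figure D4:**
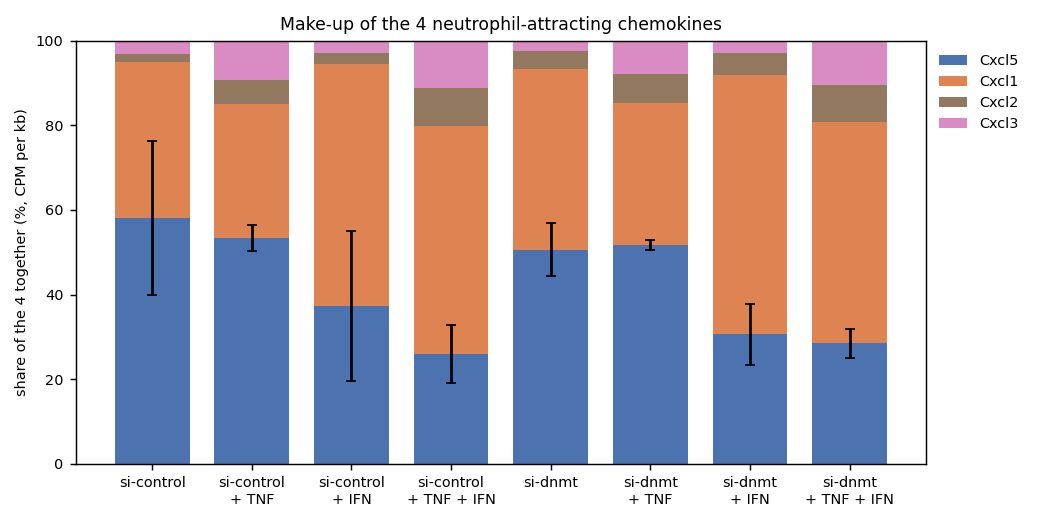
Mean share of Cxcl5, Cxcl1, Cxcl2 and Cxcl3 in their summed CPM per kb of exon (%), by group, with bars for the SD of the Cxcl5 share over 4 libraries. Cxcl5 makes up 53.3% with TNF and 25.9% with TNF + IFN in si-control cells, and 51.7% and 28.5% in si-dnmt cells.

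Compared per length, levels in si-control cells without cytokine ran from Cxcl5 (13.4 CPM per kb) through Cxcl1 (10.8) and Cxcl12 (8.33), whose libraries overlapped with each neighbour, down to Cxcl16 (1.44), Cxcl3 (0.788) and Cxcl2 (0.539), of which the last 2 overlapped. With TNF the order was Cxcl5 (100.2), Cxcl1 (59.3), Cxcl12 (26.2), Cxcl3 (17.6), Cxcl2 (10.7) and Cxcl16 (9.21), and only Cxcl5 and Cxcl1 were apart from the next below. With IFN the first 4, Cxcl1, Cxcl12, Cxcl5 and Cxcl16, lay between 6.92 and 4.25 CPM per kb, each overlapping the next. With TNF + IFN Cxcl1 came first at 55.5, apart from Cxcl5 (26.6), Cxcl16 (25.5) and Cxcl12 (23.6), which overlapped, and Cxcl3 (11.4) and Cxcl2 (9.17) followed. In si-dnmt cells Cxcl5 was likewise first without cytokine (50.2) and with TNF (226.8), overlapping Cxcl1 in both, and Cxcl1 was first with TNF + IFN (161.7), apart from Cxcl5 (88.5). With IFN alone Cxcl1 (39.9) overlapped Cxcl5 (21.0). By coding transcript length, which for Cxcl1 and Cxcl3 is far shorter than all exons, the first place turned to Cxcl1 without cytokine in si-control cells (21.3 against 15.8 for Cxcl5) and, in si-dnmt cells, without cytokine (75.4 against 59.4) and with TNF (286.1 against 268.2). Cxcl1 and Cxcl5 overlapped in these groups and in si-control + TNF (116.7 and 118.5), and Cxcl1 was still first and apart with TNF + IFN.

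The Dnmt1 siRNA was accompanied by higher chemokine mRNA in every cytokine state. Without cytokine, si-dnmt cells had more of all 6, against 9.58% of all genes called higher: Cxcl2 (3.11 ± 0.53), Cxcl5 (1.91 ± 0.40), Cxcl1 (1.83 ± 0.43), Cxcl12 (1.39 ± 0.46), Cxcl3 (1.35 ± 0.40) and Cxcl16 (1.25 ± 0.16). With IFN all 6 were again called higher, against 10.8% of all genes, led by Cxcl2 (3.59 ± 0.58), Cxcl1 (2.53 ± 0.45), Cxcl3 (2.44 ± 0.46) and Cxcl5 (2.30 ± 0.42). Cxcl12 was at 1.40 ± 0.47 and Cxcl16 at 0.93 ± 0.15. The median over the 6 was 1.61 without cytokine and 2.37 with IFN, beside medians of -0.0049 and -0.0067 over all genes tested.

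With TNF, 4 of 6 were called higher in si-dnmt cells, against 10.4% of all genes: Cxcl2 (1.47 ± 0.43), Cxcl1 (1.29 ± 0.42), Cxcl5 (1.18 ± 0.39) and Cxcl16 (0.75 ± 0.15). Cxcl3 was at 0.95 ± 0.35 (adjusted p = 0.0558) and Cxcl12 at 0.54 ± 0.46 (adjusted p = 0.448). With TNF + IFN, 4 of 6 were called, against 8.97%: Cxcl5 (1.73 ± 0.39), Cxcl2 (1.56 ± 0.43), Cxcl1 (1.54 ± 0.42) and Cxcl3 (1.5 ± 0.36). Cxcl16 was at 0.37 ± 0.15 (adjusted p = 0.0817) and Cxcl12 at 0.48 ± 0.46 (adjusted p = 0.527). With the replicate block Cxcl3 was called with TNF (1.01, adjusted p = 4.42e-04) and Cxcl16 with TNF + IFN (0.37, adjusted p = 0.0301). DESeq2 called them too (0.95, adjusted p = 0.0420, and 0.39, adjusted p = 0.0462). Cxcl3 with TNF was also called within each set (1.34 and 0.80), and Cxcl16 with TNF + IFN within replicates 3 and 4 (0.45).

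The Cxcl12 values with TNF depended on how the sets were treated. With TNF every si-dnmt library was above every si-control library, at 1.33 to 1.57 times the library of the same number, and Cxcl12 was called within replicates 1 and 2 (0.63, adjusted p = 0.00296), within replicates 3 and 4 (0.48, adjusted p = 0.000249) and with the replicate set as a block (0.57, adjusted p = 0.0488), but not with the replicate block (adjusted p = 0.0583). With TNF + IFN the ratios were 1.16 to 2.00, and Cxcl12 was called within replicates 1 and 2 (0.86, adjusted p = 0.000215) and with the replicate set as a block (0.59, adjusted p = 0.0444), but not within replicates 3 and 4 (0.23, adjusted p = 0.0600) or with the replicate block (adjusted p = 0.0547).

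Several of these calls changed when 1 library was left out. With all libraries, Cxcl1 and Cxcl5 with TNF passed the test at adjusted p = 0.0283 and 0.0299 (1.29 and 1.18). With TNF, the Cxcl1 call depended on replicates 2, 3 and 4 of si-control + TNF and on replicates 3 and 4 of si-dnmt + TNF, each of which ended it when left out (1.05 to 1.29, adjusted p 0.0574 to 0.112), that of Cxcl5 on the same 5 libraries (0.93 to 1.22, adjusted p 0.0502 to 0.127) and that of Cxcl2 on replicate 3 of si-dnmt + TNF (1.26, adjusted p = 0.0609). Cxcl3 with TNF became a call on leaving out replicate 3 or 4 of si-control + TNF, or replicate 1 or 2 of si-dnmt + TNF (1.10 to 1.24, adjusted p 0.0209 to 0.0409). Without cytokine, the Cxcl3 call depended on replicates 1, 3 and 4 of si-control and replicate 3 of si-dnmt (1.13 to 1.27, adjusted p 0.0554 to 0.0836), and the Cxcl12 call on replicates 1 and 2 of si-control and replicates 3 and 4 of si-dnmt (1.06 to 1.21, adjusted p 0.102 to 0.157). With IFN the Cxcl12 call depended likewise on replicates 1 and 2 of si-control + IFN and replicates 3 and 4 of si-dnmt + IFN (1.09 to 1.22, adjusted p 0.0929 to 0.136). When only the 2 groups were fitted, Cxcl1 without cytokine (1.83, adjusted p = 0.0789) and Cxcl12 without cytokine (1.40, adjusted p = 0.128) and with IFN (1.41, adjusted p = 0.0876) were not called, and Cxcl16 with TNF + IFN was (0.38, adjusted p = 0.0316).

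The siRNA effect without cytokine differed between the replicate sets for 5 of the 6 chemokines, against 7.47% of all genes. From replicates 1 and 2 it was 0.48 for Cxcl1, 0.98 for Cxcl2, 0.68 for Cxcl3, 0.80 for Cxcl5 and 0.68 for Cxcl16. From replicates 3 and 4 it was 3.66, 6.32, 1.95, 2.54 and 1.68 in the same order. The adjusted p of the difference was 5.86e-06, 2.00e-06, 0.0096, 6.51e-05 and 0.0031. The Cxcl2 value of replicates 3 and 4 rests on few reads, the lowest library holding 1. For Cxcl12 the sets gave 1.58 and 1.34, and this difference did not pass the test (adjusted p = 0.578). With replicates 1 and 2 fitted alone, Cxcl1 was not called without cytokine (0.49, adjusted p = 0.244) or with TNF (0.53, adjusted p = 0.163).

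With TNF the sets differed for Cxcl1 (0.53 and 1.88, adjusted p = 0.0195), Cxcl2 (0.90 and 1.86, adjusted p = 0.0301) and Cxcl5 (0.50 and 1.63, adjusted p = 0.0040), against 5.96% of all genes. With IFN no chemokine differed by this test, against 5.28% of all genes, and the sets gave 1.98 and 3.23 for Cxcl1, 3.23 and 3.92 for Cxcl2 and 2.31 and 2.29 for Cxcl5. With TNF + IFN, Cxcl3 (1.96 and 1.22, adjusted p = 0.0130) and Cxcl12 (0.86 and 0.23, adjusted p = 0.0337) differed, against 9.28% of all genes. The siRNA effect was above 0 in both sets for all 6 chemokines in all 4 states.

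**Figure D5:**
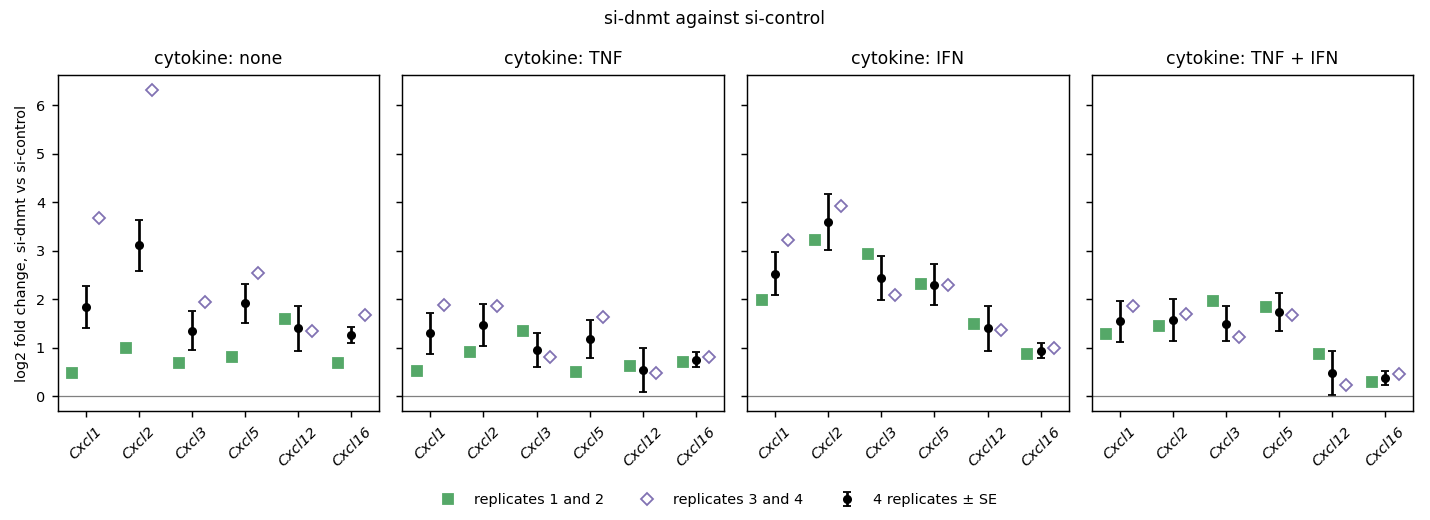
Fitted log2 fold change of si-dnmt against si-control in each cytokine state, from all 4 replicates (black, ± SE), from replicates 1 and 2 (green squares) and from replicates 3 and 4 (open diamonds). Without cytokine the sets lie apart, at 0.98 and 6.32 for Cxcl2, whereas with IFN the Cxcl5 values of 2.31 and 2.29 lie together.

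Over all 96 chemokine values of the cytokine, interaction and siRNA comparisons, the sets differed by this test in 26 and had opposite signs in 15. By comparison, the share of all genes called different ran from 0.0393% (interaction, si-dnmt) to 16.1% (TNF, si-control). Opposite signs were not counted over all genes. For the TNF response in si-control cells the sets gave 1.90 and 3.69 for Cxcl1, 3.43 and 6.94 for Cxcl2, 3.25 and 5.34 for Cxcl3 and 2.51 and 1.26 for Cxcl12, all 4 called different, against 16.1% of all genes. The 6.94 for Cxcl2 rests on few reads without cytokine, the lowest library holding 1. Cxcl5 (2.89 and 2.93) and Cxcl16 (2.70 and 2.63) did not differ by the test. The fall of Cxcl5 with TNF + IFN against TNF was -2.26 and -1.63 in si-control cells and -0.93 and -1.60 in si-dnmt cells, and neither pair was called different.

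No difference between the siRNAs in a cytokine response was called for any of the 6, in any of 5 comparisons. The background was 0.0328% for the TNF response, 0.0459% for IFN, 0.531% for TNF + IFN, 0.0328% for TNF + IFN against TNF and 0% for the interaction. The closest was Cxcl16, whose rise with TNF + IFN was smaller by 0.88 ± 0.22 in si-dnmt cells (-0.88, adjusted p = 0.0639) and was called with the replicate block (-0.87, adjusted p = 0.0120) and in DESeq2 (-0.89, adjusted p = 0.0133). For Cxcl5 the effect of adding IFN to TNF differed by 0.55 ± 0.54 (95% interval -0.55 to 1.66), and for Cxcl2 the TNF response differed by -1.65 ± 0.67 (-3.03 to -0.27, adjusted p = 0.601). Of the 30 differences between siRNAs 4 had an unadjusted p under 0.05, 2 for TNF and 2 for TNF + IFN. Of all 15254 genes, 1011 and 1379 had one for these 2 responses. For the interaction 0 of the 6 chemokines and 285 of all genes had one, and DESeq2 called 2 of all genes. Within replicates 3 and 4 alone all 6 had a called smaller response to TNF (-4.46 for Cxcl2 to -0.85 for Cxcl12) and to TNF + IFN in si-dnmt cells (-4.63 for Cxcl2 to -0.72 for Cxcl3), where 1221 and 1795 of 15184 genes were called. Both Cxcl2 values rest on few reads in si-control cells without cytokine (0.308 and 0.0448 CPM in replicates 3 and 4). Within replicates 1 and 2 alone Cxcl12 had a smaller response to TNF in si-dnmt cells (-0.96), while Cxcl3 and Cxcl5 had a larger one to TNF + IFN (1.27 and 1.02) and a higher value in the IFN response (2.22 and 1.49). The value of Cxcl5 for TNF + IFN against TNF was also higher there (1.32). In that set 303, 747, 276 and 257 of 15366 genes were called for TNF, TNF + IFN, IFN and TNF + IFN against TNF.

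Other CXC ligands were also followed. In si-control cells 3 of the 4 tested, Cxcl9, Cxcl10 and Cxcl11, rose with TNF + IFN against TNF and Pf4 fell, with the highest log2 fold change for Cxcl9 (10.1 ± 0.72) and the lowest for Pf4 (-0.96 ± 0.28, adjusted p = 0.0154, lost on leaving out replicate 1 of si-control + TNF + IFN, at -0.89, adjusted p = 0.0538). Cxcl9 went from 3.51 ± 0.606 to 3818 ± 737 CPM and Cxcl10, the CXCR3 ligand also known as IP-10, from 274.0 ± 56.5 to 1748 ± 306 CPM. Pf4, platelet factor 4, lies in the same cluster as the neutrophil attractants. Of the receptors only Cxcr4 and Ackr3, both receptors of Cxcl12, passed the filter, and Cxcr4 was lower (-2.77 ± 0.67) and Ackr3 higher (1.03 ± 0.36, adjusted p = 0.0394). The Ackr3 call depended on replicates 1 and 2 of both groups (0.88 to 0.97, adjusted p 0.0928 to 0.118).

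Genes of the pathways through which the cytokines act were taken as further lists, and the members with the lowest and highest log2 fold change among those called are given for TNF + IFN against TNF in si-control cells. Beside these counts, 16.1% of all genes were called higher with TNF and 21.0% in either direction for TNF + IFN against TNF. Of 12 NF-kB genes, 11 rose with TNF, and 4 were higher and 0 lower when IFN was added, from Rela (0.40 ± 0.11, lost on leaving out replicate 1 of si-control + TNF + IFN, at 0.30, adjusted p = 0.0578) to Tnfaip3 (0.89 ± 0.17), an inhibitor of the pathway. Of 12 genes of IFNγ signalling, 8 were higher and 2 lower, from Ifngr1 (-0.81 ± 0.11), a chain of the receptor, to Irf8 (3.64 ± 0.41), a transcription factor induced by IFNγ. Of 5 genes of TNF receptor signalling 4 were higher, from Traf2 (0.34 ± 0.089) to Tnfrsf1a (0.56 ± 0.11), the main TNF receptor.

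Of 8 genes that control chemokine mRNA decay, 1 was higher and 0 lower, no larger a share than the 21.0% of all genes called: Zfp36 (1.58 ± 0.15), which encodes tristetraprolin, the protein that binds AU-rich elements. Of 6 proteases that cleave chemokines, Dpp4 was higher and Mmp9 lower (-1.91 ± 0.55, adjusted p = 0.0122), and Adam10 and Adam17, which act on Cxcl16, were not called (-0.26 and -0.33). Dpp4, which truncates Cxcl12, was at 0 in all 4 si-control + TNF libraries and at no more than 7 reads in any si-control + TNF + IFN library, so no fold is given. The Mmp9 call depended on replicate 4 of si-control + TNF and on replicates 1 and 2 of si-control + TNF + IFN (-1.61 to -1.56, adjusted p 0.0501 to 0.0544). Of 11 tested genes of other neutrophil recruitment factors, 8 rose with TNF and 1, Selp, which encodes P-selectin, fell (-1.04 ± 0.22, named after its value was seen), and 2 were higher with IFN on top, a share near the 21.0% of all genes: Icam1 (0.89 ± 0.22) and Vcam1 (0.30 ± 0.11, adjusted p = 0.0497), adhesion molecules of the endothelium. The Vcam1 call was lost without any 1 of 7 of the 8 libraries compared (0.25 to 0.33, adjusted p 0.0501 to 0.146). With these 2 groups fitted alone, neither Mmp9 (adjusted p = 0.101) nor Vcam1 (adjusted p = 0.107) was called. Within replicates 1 and 2 alone Traf2 and Vcam1 were not called (0.22 and 0.11), nor were Ackr3 (0.43) and Dpp4 within replicates 3 and 4. Medians over these lists lay between -0.87 for the receptors and 3.86 for the other ligands, beside -0.0085 over all genes.

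Each chemokine was compared with 5127 genes over the 32 libraries by the Pearson correlation of log2 CPM, as a description, since all points share the same libraries and treatments. Cxcl1 was most like Cxcl2 (r = 0.973), then Dusp8 (0.950) and Slc11a2 (0.940), and Cxcl2 was most like Cxcl1, Ccdc122 (0.955) and Ell2 (0.954). Cxcl3 was most like Tank (0.973), Micall2 (0.967) and Vegfc (0.964). Cxcl5 had lower values with its nearest genes, Susd2 (0.934), Radil (0.930) and Prag1 (0.919), and so had Cxcl12 with Abcb1b (0.934), Gpr176 (0.933) and Ppp1r14a (0.919). Cxcl16 was most like Zmynd15 (0.973), Clic4 (0.972) and Stx11 (0.970).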

How the data were processed

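RNA-seq reads of 32 libraries (8 groups of 4) had been counted per gene by the authors, and the deposited values are raw whole-number counts with no normalization. Per the submitters' processing notes, cutadapt 4.9, featureCounts and DESeq2 were among the tools; for the aligner, genome build and strand setting, nothing was given in the sources used here, and reads of overlapping or antisense genes cannot be told apart. Totals per library were 17362546 to 33500030 counts (median 20859668), and no pair of libraries held identical values.

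Genes with too few counts were removed with edgeR 4.0.16 (filterByExpr, minimum count 10), libraries were scaled by TMM, and 8 group means were fitted to all 32 libraries with the quasi-likelihood F test. Adjusted p-values are Benjamini-Hochberg over the 15254 genes left. DESeq2 1.42.0, RLE scaling, no filter, the compared groups alone, the replicate number as a block, each replicate set alone and leaving out each library were run as alternatives, and the replicate set as a block, a separate set difference and coding transcript lengths were added after the data had been seen. The tests were checked on simulated counts that held no difference between replicate sets, so this check does not cover the set difference seen here. Replicate numbers were taken to pair libraries because, over all 112 pairs of groups and numbers, deviations from group means correlated above 0.1 (median 0.415). Libraries with the other number of the same set correlated about as highly (median 0.409), and 24 of 32 libraries were nearest to their own number. The criterion therefore cannot tell pairing by number from the difference between the sets. The labels give the numbers without saying what they mark. CPM used TMM-scaled library sizes. Log2 CPM for correlations used a prior count of 2, over genes with a highest group mean of at least 1 CPM whose group means spanned at least 1 on the log2 scale, and the 3 nearest genes are named. Promoter windows and gene order came from RefSeq (GRCm38.p6), and transcripts and exon lengths came from the GENCODE mouse annotation.

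All 6 chemokines are named. From each other list the tested genes with the highest and lowest log2 fold change among those called for TNF + IFN against TNF in si-control cells are named, and other list genes were named after their values were seen. The chemokines and the lists were chosen with earlier results of these data known.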

Additional observations from a re-analysis of the deposited data

Results flagged for a closer look

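Cxcl3 in si-control cells without cytokine had 1 library far from the others. Replicate 2 was at 4.24 CPM and the other 3 libraries at 2.20 to 2.33 CPM, a gap of 0.934 of the range of the group. It was the only such library in 48 groups of 4 values checked (6 chemokines in 8 groups), and chance alone gives about 1 in 20. In the same culture Cxcl1 (47.8 CPM) and Cxcl2 (2.65 CPM) were also the highest of their 4 libraries. None of the 30 differences between the siRNAs in a cytokine response was called.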

How the results depend on the processing

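Of 96 chemokine values, 52 kept their direction and their side of the threshold under all 8 alternatives and 32 fits without a library. The cytokine responses called, 40 of 60, numbered 39 to 52 under the alternatives. With the replicate block, Cxcl3 with TNF + IFN against TNF was called in si-control cells (-0.58) and at 0.0011 in si-dnmt cells, and 1 of 30 siRNA differences was called. With the replicate set as a block, chosen after seeing the data, these were -0.57, 0.0017 and 1. The block changed no other call than those given beside the results. DESeq2 called 1 siRNA difference. The cause of the changes below was not tested.

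With replicates 1 and 2 alone, 2 of 12 interactions and 6 siRNA differences were called. For the interaction, 1632 and 737 of 15366 genes were called there in si-control and si-dnmt cells. TNF + IFN against TNF was then 8.72e-05 for Cxcl1 in si-control cells, and 0.75, 0.49 and 0.31 for Cxcl1, Cxcl2 and Cxcl3 in si-dnmt cells. IFN against none was 0.61 for Cxcl2 and 0.27 for Cxcl3 in si-dnmt cells. The interaction was 1.65 for Cxcl3, 0.027 for Cxcl5 and -0.27 for Cxcl12 in si-control cells, and -0.12 for Cxcl2 and -0.68 for Cxcl16 in si-dnmt cells. With replicates 3 and 4 alone, 12 siRNA differences were called. IFN against none was 0.16 for Cxcl1 and 1.65 for Cxcl2 in si-control cells, and -0.27 for Cxcl1, -0.75 for Cxcl2, -0.40 for Cxcl3 and -0.30 for Cxcl12 in si-dnmt cells, the last 3 called. TNF + IFN against TNF was -0.41 for Cxcl2 and -0.74 for Cxcl3 in si-control cells, and -0.25, -0.58, -0.31 and -0.26 for Cxcl1, Cxcl2, Cxcl3 and Cxcl12 in si-dnmt cells. The interaction was -0.38, -2.06 and -0.19 for Cxcl1, Cxcl2 and Cxcl3 in si-control cells and 0.26 for Cxcl16 in si-dnmt cells.

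Leaving out 1 library gave 0 to 1 siRNA differences called. For IFN against none, values ranged from -1.07 to 0.23 for Cxcl1, -1.26 to 0.040 for Cxcl2 and -0.59 to 0.038 for Cxcl12 in si-control cells, and from -0.12 to 0.41, -0.64 to 0.13, -0.26 to 0.097 and -0.60 to 0.051 for Cxcl1, Cxcl2, Cxcl3 and Cxcl12 in si-dnmt cells. For TNF + IFN against TNF they ranged from -0.19 to 0.0043 for Cxcl1 in si-control cells, and from -0.036 to 0.40, -0.31 to 0.077, -0.25 to 0.13 and -1.56 to -1.10 for Cxcl1, Cxcl2, Cxcl3 and Cxcl5 in si-dnmt cells. Interactions ranged from -0.32 to 0.97, -0.27 to 1.03 and -0.19 to 0.44 for Cxcl1, Cxcl2 and Cxcl12 in si-control cells. In si-dnmt cells they ranged from -0.26 to 0.34, -0.26 to 0.51, -0.18 to 0.25, -0.51 to 0.16 and -0.26 to 0.39 for Cxcl1, Cxcl2, Cxcl3, Cxcl5 and Cxcl12.

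Counts over all genes moved too. With the replicate block, called genes went from 2209 to 3880 for IFN in si-control cells and from 1375 to 2892 in si-dnmt cells, from 3203 to 5175 and from 2664 to 4532 for TNF + IFN against TNF, from 3209 to 5235 for TNF and from 3607 to 5470 for TNF + IFN against IFN in si-dnmt cells. Interactions went from 162 to 646 and from 54 to 277 with the block, to 282 and 96 in DESeq2, to 94 and 122 with the compared groups alone, to 1632 and 737 with replicates 1 and 2 alone, and to 661 and 318 with replicates 3 and 4 alone. The siRNA effect went with the block from 2816 to 4941 without cytokine, 3050 to 5097 with TNF, 3103 to 5258 with IFN and 2699 to 4694 with both. The IFN count in si-control cells was 1387 with those 2 groups alone. Differences between siRNAs in the TNF, IFN, TNF + IFN and TNF + IFN against TNF responses went from 5, 7, 81 and 5 to 136, 59, 638 and 41 with the block and to 44, 32, 179 and 16 in DESeq2. Low counts limit Cxcl2 without TNF in si-control cells, where 1 library held 1 read.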
